A study of Drosophila melanogaster with 14 samples.

Results

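Broad H3K4me3 domains were the widest regions of trimethylated histone H3 lysine 4 in Drosophila melanogaster embryos. They were chosen by width alone, as the peaks of the embryo H3K4me3 list that spanned 3000 bp or more, and numbered 873 of 6499 peaks. Peaks below that width, called narrow peaks here, numbered 5626. Chromatin immunoprecipitation with sequencing (ChIP-seq) recovers DNA with an antibody against a protein or a histone mark, and a peak is a region where the recovered fragments pile up. The study used the Iso1 strain, the strain behind the reference genome. Wing imaginal discs, larval sheets of cells from which the adult wing grows, came from wandering larvae of instar 3 and gave 1 library of Yki, 2 of GAF and 2 of input chromatin. Whole embryos, collected 8 to 16 h after egg laying, gave 3 libraries of Yki, 3 of GAF, 2 of H3K4me3 and 1 of input. The labels name no transgene, mutation or treatment in either tissue, and both tissues are mixtures of cell types. Each antibody and tissue had 1 deposited peak list, so spread between replicates could not be measured, and the intervals below are 95% intervals that cover counting error over peaks and domains, which are not replicates. H3K4me3 was mapped in embryos only, so that wing disc peaks were placed on domains of another stage and tissue.

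H3K4me3 is laid down at the promoters of active genes by methyltransferase complexes of the Set1 and Trithorax family. In mammals, unusually wide domains of this mark are known from genes of cell identity. Yorkie (Yki) is the transcriptional coactivator that the Hippo pathway holds out of the nucleus to restrain growth, and it reaches DNA through partners such as Scalloped. GAGA factor (GAF), the Trithorax-like gene product, recognises GA-rich sequence and helps to keep promoters free of nucleosomes.

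Broad domains were few in number but held much of the mark. They made up 13.4% of the H3K4me3 peaks and 38.2% of the bases in them, or 4.13 Mb of 10.8 Mb. Their median width was 4142 bp, with quartiles at 3419 and 5447 bp and a maximum of 17875 bp, against a median of 1074 bp for narrow peaks. Width chose the domains, so this difference is a description. At the threshold, the narrowest domains spanned 3000, 3001 and 3002 bp. The first of them, at 2R:16528392-16531391, carried 1 Yki peak of each tissue, the second, at 3R:25695026-25698026, carried no Yki or GAF peak, and the third, at 2R:12208526-12211527, carried 1 Yki wing disc peak. Just outside the threshold lay a peak 1 bp short of it at 3L:7362662-7365660 with 2 Yki wing disc peaks and 1 Yki embryo peak. A peak of 2993 bp at 2L:6179116-6182108 carried 1 peak of each of the 4 lists, and another of 2993 bp at 3R:16150953-16153945 carried 1 Yki peak of each tissue. All positions are on the dm3 build, counted from 1, and no gene is named because no annotation of that build was used.

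Yki in wing discs was the most frequent of the 4 lists on broad domains. At least 1 Yki wing disc peak overlapped 611 of 873 broad domains (70.0%, interval 66.9 to 72.9%), beside 44.9% of all H3K4me3 peaks and 41.0% of narrow peaks. A GAF wing disc peak overlapped 446 broad domains (51.1%, 47.8 to 54.4%), beside 37.4% of all and 35.2% of narrow peaks. A Yki embryo peak overlapped 275 broad domains (31.5%, 28.5 to 34.7%), beside 24.3% of all and 23.1% of narrow peaks. GAF in embryos went the other way. Its peaks overlapped 173 broad domains (19.8%, 17.3 to 22.6%), beside 24.6% of all and 25.3% of narrow peaks. The difference, broad minus narrow, was 29.0 percentage points for Yki in wing discs (25.6 to 32.2), 15.8 for GAF in wing discs (12.3 to 19.4), 8.36 for Yki in embryos (5.16 to 11.7) and -5.48 for GAF in embryos (-8.24 to -2.49). A wider region meets more peaks, so these shares describe the domains and show no preference for them.

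The share of H3K4me3 peaks overlapped went up with width for Yki in wing discs, whereas for GAF in embryos it was lowest in the widest class. Across classes of below 1000, 1000 to below 2000, 2000 to below 3000, 3000 to below 4000, 4000 to below 6000 and 6000 bp or more, Yki wing disc peaks overlapped 24.3, 53.8, 58.6, 63.7, 71.4 and 83.1%. GAF wing disc peaks overlapped 25.1, 44.8, 42.5, 48.5, 50.5 and 58.8% of the same classes. For Yki embryo peaks the shares were 13.5, 31.9, 30.6, 29.4, 31.2 and 37.5%, with little change between 1000 and 6000 bp. GAF embryo peaks overlapped 23.4, 29.6, 21.7, 22.1, 19.3 and 15.0%. In the last class 24 of 160 domains carried a GAF embryo peak (interval 10.3 to 21.4%), and 133 of 160 carried a Yki wing disc peak (76.6 to 88.1%), so these intervals lie far apart.

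**Figure D1:**
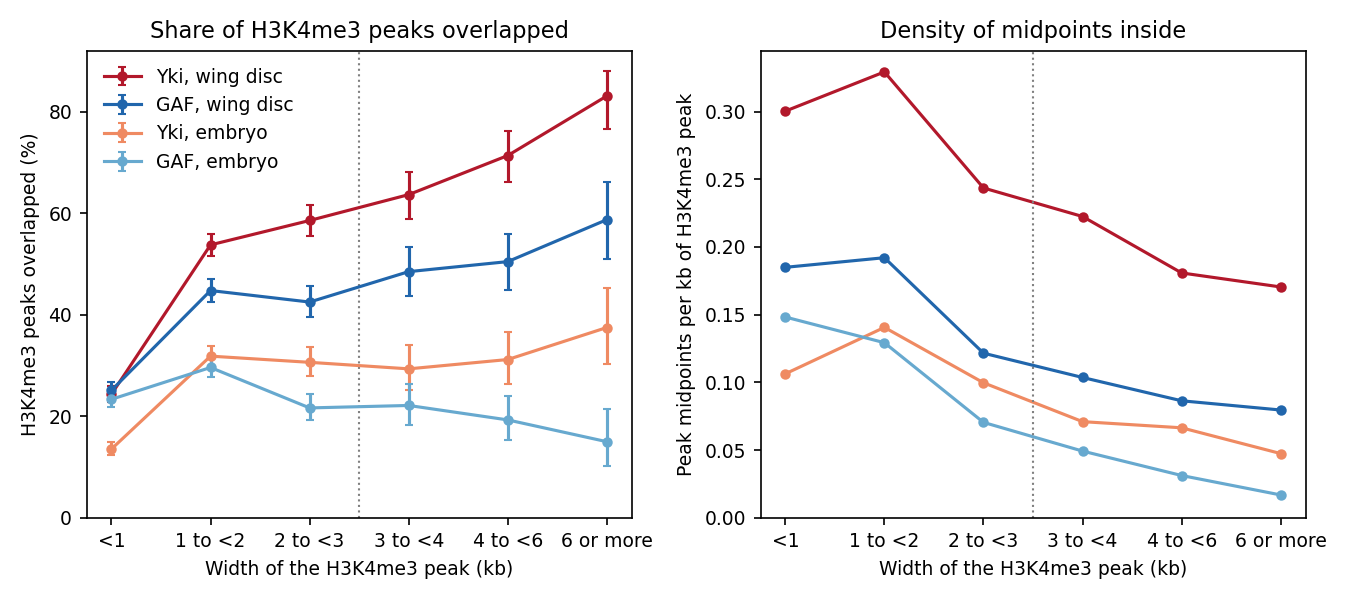
Left, the share of H3K4me3 peaks overlapped by each list, in percent with Wilson 95% bars, by class of H3K4me3 width in kb. Right, peak midpoints per kb of H3K4me3 peak in the same classes. The dotted line is the threshold of 3000 bp. Yki wing disc shares reach 83.1% in the widest class, whereas the density of every list is lower in the 3 broad classes than in the 3 narrow ones.

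Per kb, all 4 lists were sparser in broad domains than in narrow peaks. To allow for the longer sequence, the midpoints of Yki and GAF peaks were counted inside H3K4me3 peaks and divided by the bases there. Every H3K4me3 peak has an edge at each end whatever its width. Where midpoints gather near edges, this density therefore falls with width, and densities by distance from the edge are given below. Yki in wing discs had 791 midpoints in broad domains, or 0.192 per kb, against 0.292 per kb in narrow peaks, a ratio of 0.656 (interval 0.603 to 0.712). GAF in wing discs had 372 midpoints, or 0.0901 per kb, against 0.165 per kb, a ratio of 0.546 (0.484 to 0.615). Both ratios lie well below 1, and those of the embryo lists were lower still. Yki in embryos had 257 midpoints, or 0.0623 per kb, against 0.119 per kb, a ratio of 0.524 (0.453 to 0.603). GAF in embryos had 136 midpoints, or 0.0330 per kb, against 0.112 per kb, a ratio of 0.295 (0.244 to 0.354), the lowest of the 4. Set against narrow peaks of 1000 bp or more alone, the ratios were 0.660 and 0.563 for Yki and GAF in wing discs and 0.510 and 0.321 in embryos. Set against those of 2000 bp or more, a comparison chosen after seeing the data, they were nearer to 1, at 0.787 (0.706 to 0.877) and 0.741 (0.635 to 0.867) in wing discs and 0.624 (0.522 to 0.747) and 0.468 (0.370 to 0.589) in embryos. Leaving out GAF peaks over 1000 bp brought the GAF ratios against all narrow peaks nearer to 1. They were 0.801 in wing discs (0.693 to 0.923) and 0.379 in embryos (0.300 to 0.476). In the 160 domains of 6000 bp or more, density was 0.170 per kb for Yki and 0.0796 for GAF in wing discs, and 0.0474 and 0.0169 in embryos. On each of the arms X, 2L, 2R, 3L and 3R the ratio of broad to narrow density was below 1 for every list, at 0.602 to 0.7003 and 0.483 to 0.641 for Yki and GAF in wing discs and 0.466 to 0.576 and 0.240 to 0.374 in embryos.

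An equal window about the centre gave lower shares in broad domains than in narrow peaks as a whole, but not for every list against narrow peaks of similar width. Within 500 bp of the centre, 18.2% of broad domains and 22.2% of narrow peaks had a Yki wing disc midpoint, a difference of -3.97 points (interval -6.63 to -1.07). For GAF in wing discs the shares were 10.5% and 15.5%, a difference of -4.96 points (-7.06 to -2.56), which was 1.19 points (-0.570 to 3.28) when GAF peaks over 1000 bp were left out. For Yki in embryos they were 7.45% and 11.5%, a difference of -4.09 points (-5.87 to -1.99). GAF in embryos had the widest difference, with 25 of 873 broad domains (2.86%) against 12.8% of narrow peaks, or -9.90 points (-11.2 to -8.32). In narrow peaks below 1000 bp the window reaches past the edges. Against narrow peaks of 2000 bp or more, which hold the whole window, the difference had the other sign for Yki in wing discs (18.2% and 10.3%, 7.93 points, 4.77 to 11.1). It was 2.25 points for GAF in wing discs (-0.387 to 4.96) and 0.260 points for Yki in embryos (-2.10 to 2.67), with intervals that hold 0. For GAF in embryos it stayed negative, at -5.02 points (-7.07 to -3.01). In these narrow peaks the window begins nearer to the edges than in broad domains. Density of Yki in wing discs varied with distance from the edge, as given below, so this comparison does not isolate width.

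Most occupied broad domains held a single peak of a list, and Yki in wing discs was the list most often present more than once. Of the 873 domains, 391 held 1 Yki wing disc peak, 169 held 2, 39 held 3, 11 held 4 and 1 held 5. That made 220 domains with 2 or more (25.2%), against 5.99% of narrow peaks. GAF wing disc peaks came 2 or more to a domain in 79 domains (9.05%, against 2.60% of narrow peaks), Yki embryo peaks in 59 (6.76%, against 2.95%) and GAF embryo peaks in 17 (1.95%, against 1.76%). Summed over the 4 lists, 502 broad domains (57.5%) carried 2 or more peaks, against 35.8% of narrow peaks, and the most crowded carried 10 peaks, against 9 for narrow peaks. In that sum a site found in several lists counts once for each list. A wider region meets more peaks, so the counts in this paragraph are not read as clustering.

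All 16 combinations of the 4 lists occurred on broad domains, with very unequal counts. No list had a peak on 167 broad domains (19.1%), beside 42.1% of all H3K4me3 peaks and 45.7% of narrow ones. These 167 domains had a median width of 3755 bp. A Yki wing disc peak alone met 176 domains (20.2%, against 11.6% of narrow peaks), and Yki with GAF in wing discs met 141 (16.2%, against 5.40%). All 4 lists met 116 broad domains (13.3%), close to the 13.4% of all H3K4me3 peaks and the 13.5% of narrow ones, with a difference of -0.186 points (interval -2.47 to 2.38). Few domains carried embryo peaks without a wing disc peak. Yki of embryos was alone on 10 domains (1.15%, against 1.53% of narrow peaks, a difference of -0.383 points with an interval of -1.01 to 0.610). GAF of embryos was alone on 2 (0.229%, against 2.08%), and both were without a wing disc peak on 1 (0.115%, against 0.373%).

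**Figure D2:**
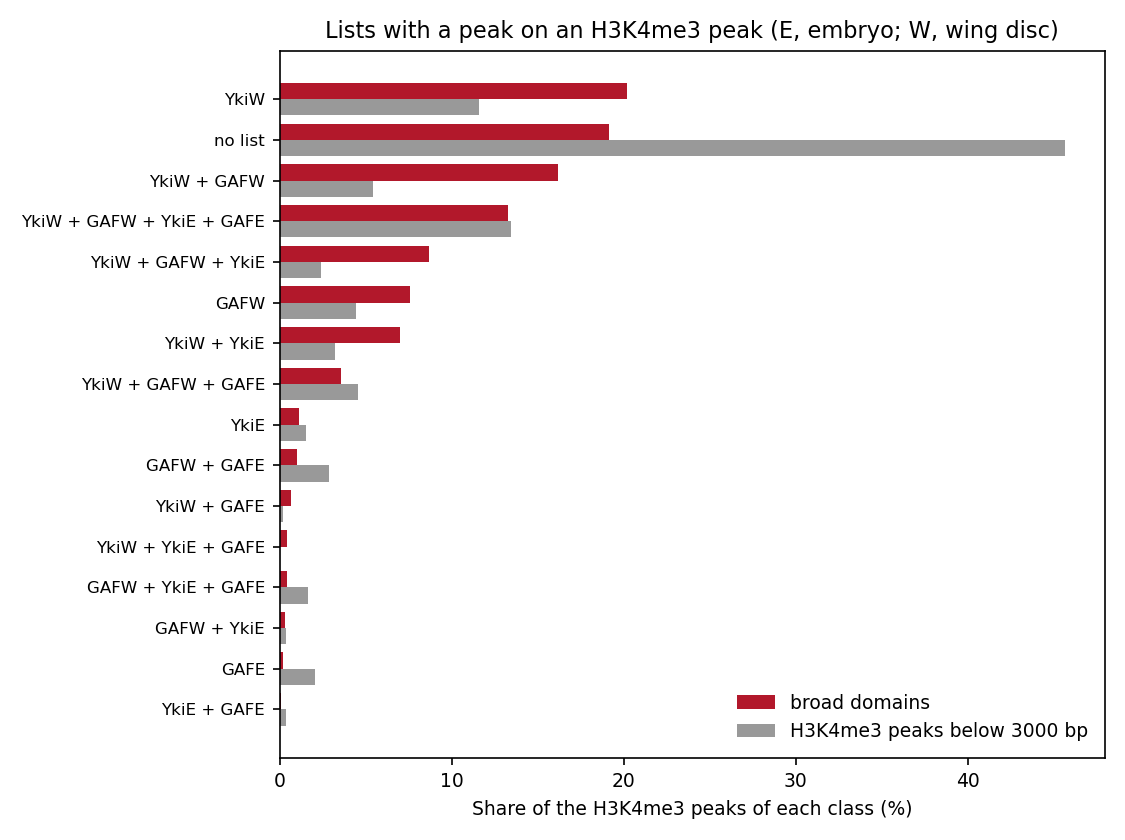
Share of broad domains (red) and of narrow H3K4me3 peaks (grey) met by each combination of the 4 lists, in percent of the class. YkiW and GAFW stand for wing disc lists, YkiE and GAFE for embryo lists. No list met 19.1% of broad domains and 45.7% of narrow peaks.

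Embryo peaks on broad domains mostly lay on domains that the same protein also met in wing discs. Of the 275 domains with a Yki embryo peak, 257 had a Yki wing disc peak (93.5%), against 82.9% of narrow peaks with a Yki embryo peak. Of the 173 with a GAF embryo peak, 160 had a GAF wing disc peak (92.5%, against 89.2%). Yki and GAF of wing discs met 70.0% and 51.1% of all broad domains, and 41.0% and 35.2% of all narrow peaks. These base shares differ with width, so closer sharing on broad domains is not shown. The reverse share was smaller. Of the domains with a Yki wing disc peak 42.1% had a Yki embryo peak, beside 31.5% of all broad domains. Of those with a GAF wing disc peak 35.9% had a GAF embryo peak, beside 19.8% of all broad domains. The wing disc and embryo lists of Yki differ in length, at 6491 and 3749 peaks, and depth and calling cannot be told apart from tissue here.

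Yki peaks inside broad domains coincided with GAF peaks less often than Yki peaks elsewhere. Among Yki wing disc peaks with their midpoint in a broad domain, 40.5% (37.1 to 43.9%) overlapped a GAF wing disc peak, against 57.8% (55.6 to 60.0%) in narrow peaks and 70.4% outside H3K4me3 peaks. Among Yki embryo peaks the shares with a GAF embryo peak were 39.7% (33.9 to 45.8%) in broad domains, 69.3% (66.0 to 72.4%) in narrow peaks and 71.5% outside. The differences, broad minus narrow, were -17.4 points (-21.4 to -13.3) in wing discs and -29.6 points (-36.2 to -22.7) in embryos. In contrast, the share of Yki embryo peaks that overlapped a Yki wing disc peak was 86.4% in broad domains and 86.6% in narrow peaks. The difference was -0.269 points (-5.48 to 4.19), and the share outside H3K4me3 peaks was 58.2%. From the GAF side, 71.8% of wing disc peaks in broad domains overlapped a Yki wing disc peak. The share was 78.4% in narrow peaks and 44.3% outside. For GAF and Yki of embryos these shares were 58.1, 65.3 and 27.8%. Broad minus narrow, they differed by -6.63 points (-11.9 to -1.61) in wing discs and -7.19 points (-16.2 to 1.496) in embryos. The second interval holds 0. GAF was sparser per kb in broad domains, and whether that lowers the share of Yki peaks was not tested.

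GAF peaks inside broad domains were also smaller than those in narrow peaks. The wing disc lists carry a score for each peak, which is the authors' own and is used here only within its list. GAF wing disc peaks with their midpoint in a broad domain had a median score of 21.0, against 55.0 in narrow peaks and 33.8 outside H3K4me3 peaks. The share above the list's median was 35.2% in broad domains and 58.2% in narrow peaks, a difference of -23.0 points (interval -28.4 to -17.2). Their median width was 560.5 bp, against 931 bp in narrow peaks. The embryo lists carry no score, but GAF embryo peaks in broad domains had a median width of 633 bp, against 937 bp in narrow peaks and 554 bp outside H3K4me3 peaks, so that they were narrower only than those in narrow peaks. Yki wing disc peaks differed less, with a median score of 12.4 in broad domains, against 13.6 in narrow peaks, and 42.4% against 49.4% above the list's median (-7.09 points, -11.1 to -2.97). Yki embryo peaks had a median width of 458 bp in broad domains, against 523 bp in narrow peaks and 416.5 bp outside H3K4me3 peaks. The share above the list's median width differed by -6.13 points from narrow peaks (-13.1 to 0.791) and by 6.96 points from peaks outside (0.568 to 13.2).

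Along the domains, Yki in wing discs stood out at the ends. Each domain was divided into 5 zones by relative distance from the nearest end, each with 20% of the length, and both ends were pooled because the lists carry no strand. The zone at the ends held 269 of 791 Yki wing disc midpoints (34.0%, 30.8 to 37.4%), against 20.9% in narrow peaks, where the next zone in was the fullest (29.6%). The second zone of broad domains held 13.3%, the third 15.0%, the fourth 16.8% and the centre 20.9%, so that density was lowest just behind the ends. GAF in wing discs held 26.3% at the ends, 15.1% in the second zone and 23.1% at the centre. Yki in embryos ran from 19.1% at the ends to 24.1% at the centre, and GAF in embryos held 22.1% at the ends, 27.2% in the second zone and 17.6% at the centre. With 257 and 136 midpoints, the zones of the embryo lists have overlapping intervals.

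**Figure D3:**
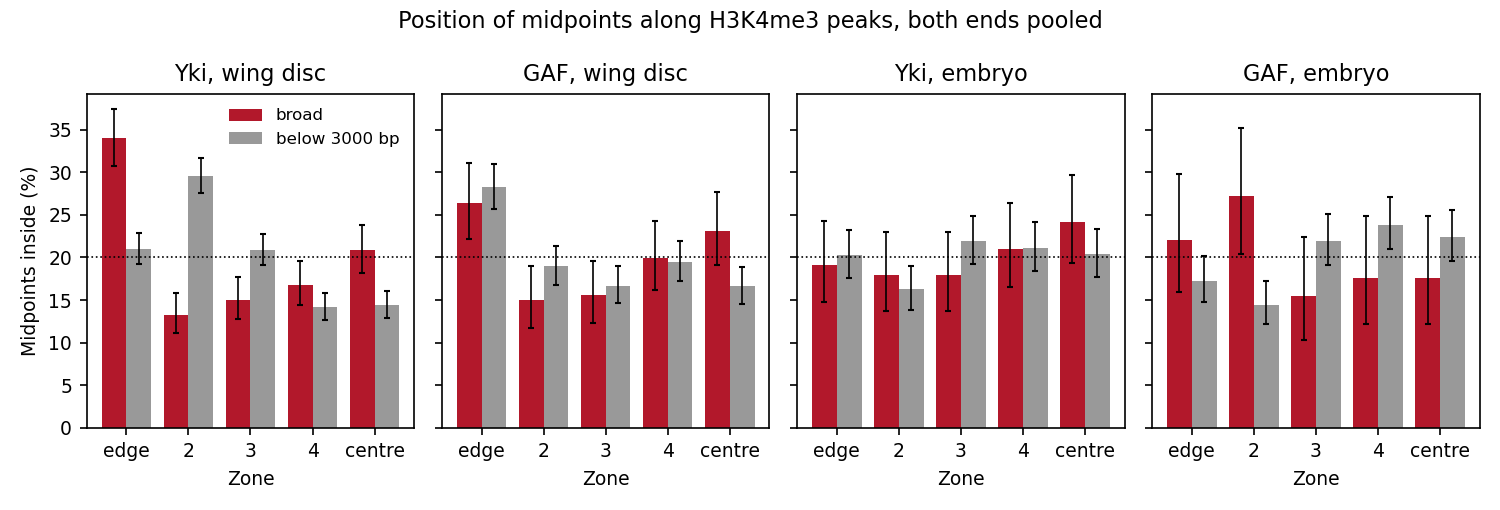
Share of peak midpoints in 5 zones of equal length, from the ends (left) to the centre (right) of broad domains (red) and narrow H3K4me3 peaks (grey), in percent of the midpoints inside, with Wilson 95% bars. The dotted line at 20% is an even spread. For Yki in wing discs the end zone of broad domains holds 34.0%.

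Comparing the outer 25% at each end with the central 50% gave one value for each list. In wing discs Yki had 427 midpoints near the ends and 364 near the centre, a ratio of 1.17 (interval 1.02 to 1.35). The size of that excess depends on the definition. It was 1.73 (1.43 to 2.10) for the outer 500 bp at each end against the central 1000 bp and 1.40 (1.23 to 1.58) with a threshold of 2500 bp. It was 0.931 (0.748 to 1.16) with the higher-scoring 50% of the list and 0.916 (0.830 to 1.01) with H3K4me3 peaks less than 500 bp apart joined, and both of these intervals hold 1. For GAF in wing discs the counts were 184 and 188 midpoints, a ratio of 0.979 (0.794 to 1.21). In embryos, Yki had 114 and 143 (0.797, 0.618 to 1.03) and GAF had 75 and 61 (1.23, 0.865 to 1.75). Of these 4 intervals the first excludes 1. With H3K4me3 peaks joined, those of Yki in embryos (0.827, 0.703 to 0.973) and GAF in embryos (1.78, 1.43 to 2.23) excluded 1 as well, as did that of Yki in embryos with Yki peaks of 1000 bp or less (0.758, 0.574 to 0.999).

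Ends and centre were weighted differently in broad domains than in narrow peaks for 3 of the lists. The edge over centre ratio of Yki in wing discs was 0.724 times that in narrow peaks (interval 0.613 to 0.856), and that of GAF in wing discs 0.775 times (0.612 to 0.981). With a threshold of 2500 bp, 0.916 and 0.883 took their places and both intervals held 1. Against narrow peaks of 2000 bp or more the values were lower, at 0.371 for Yki (0.293 to 0.469) and 0.525 for GAF in wing discs (0.384 to 0.719). GAF in embryos went the other way, with 1.67 times the ratio of narrow peaks (1.16 to 2.42). When GAF peaks over 1000 bp were left out this value was 1.28 (0.817 to 2.01), an interval that holds 1. For Yki in embryos the value was 0.891 (0.671 to 1.18), and 0.601 (0.422 to 0.856) against narrow peaks of 2000 bp or more. A fixed share of the length is a longer stretch in a broad domain, and the distances in bp below do not depend on it.

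Measured in bp, Yki in wing discs formed a sharp shoulder just inside the edges of broad domains. Density was 0.355 per kb in the outermost 250 bp and 0.334 per kb in the next 250 bp, then 0.0985 per kb between 500 and 1000 bp from the edge. The outer 500 bp therefore had 3.50 times the density of the following 500 bp (interval 2.75 to 4.50). Narrow peaks of 1000 bp or more had a shoulder as well, at 2.66 times (2.34 to 3.04), and GAF in wing discs had a lower one in broad domains, at 1.90 times (1.35 to 2.72). Deeper than 1000 bp in broad domains, the density of Yki in wing discs was 0.170 per kb. That was 1.72 times the density of the 500 to 1000 bp stretch (1.36 to 2.20). The density in the outermost 250 bp was that of narrow peaks within counting error, with a ratio of 1.05 (0.883 to 1.25), whereas the ratio was 0.797 (0.663 to 0.953) from 250 to 500 bp and 0.652 (0.506 to 0.832) from 500 to 1000 bp. From 1000 to 1500 bp, where few narrow peaks reach, it was 1.20 (0.857 to 1.69). In the outermost 250 bp the other lists were sparser in broad domains than in narrow peaks, with ratios of 0.766 for GAF in wing discs (0.588 to 0.984), 0.576 for Yki in embryos (0.373 to 0.856) and 0.341 for GAF in embryos (0.192 to 0.564).

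The other lists were highest just outside the edge or had no clear rise. GAF in wing discs had 0.258 midpoints per kb in the 250 bp outside the edge and 0.160 per kb in the 250 bp inside, a ratio of 1.61 (interval 1.17 to 2.22). Yki in embryos had 0.199 per kb outside and 0.0619 per kb inside, a ratio of 3.21 (2.04 to 5.20). Yki in wing discs, by contrast, had 0.223 per kb outside and 0.355 inside, a ratio of 0.628 (0.475 to 0.825). GAF in embryos had 0.0645 per kb outside and 0.0367 inside, on 24 and 16 midpoints, with an interval that holds 1 (1.76, 0.897 to 3.55). Narrow peaks of 1000 bp or more had the same order for Yki, with outside over inside ratios of 0.695 in wing discs (0.608 to 0.794) and 2.22 in embryos (1.85 to 2.68). In the 250 bp outside the edge of broad domains the densities of both Yki lists were thus close. In the 250 bp inside they were far apart. Farther out, from 500 to 1000 bp outside, they were 0.0872 per kb in wing discs and 0.0414 per kb in embryos. Tissue, calling and depth cannot be told apart in these comparisons.

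**Figure D4:**
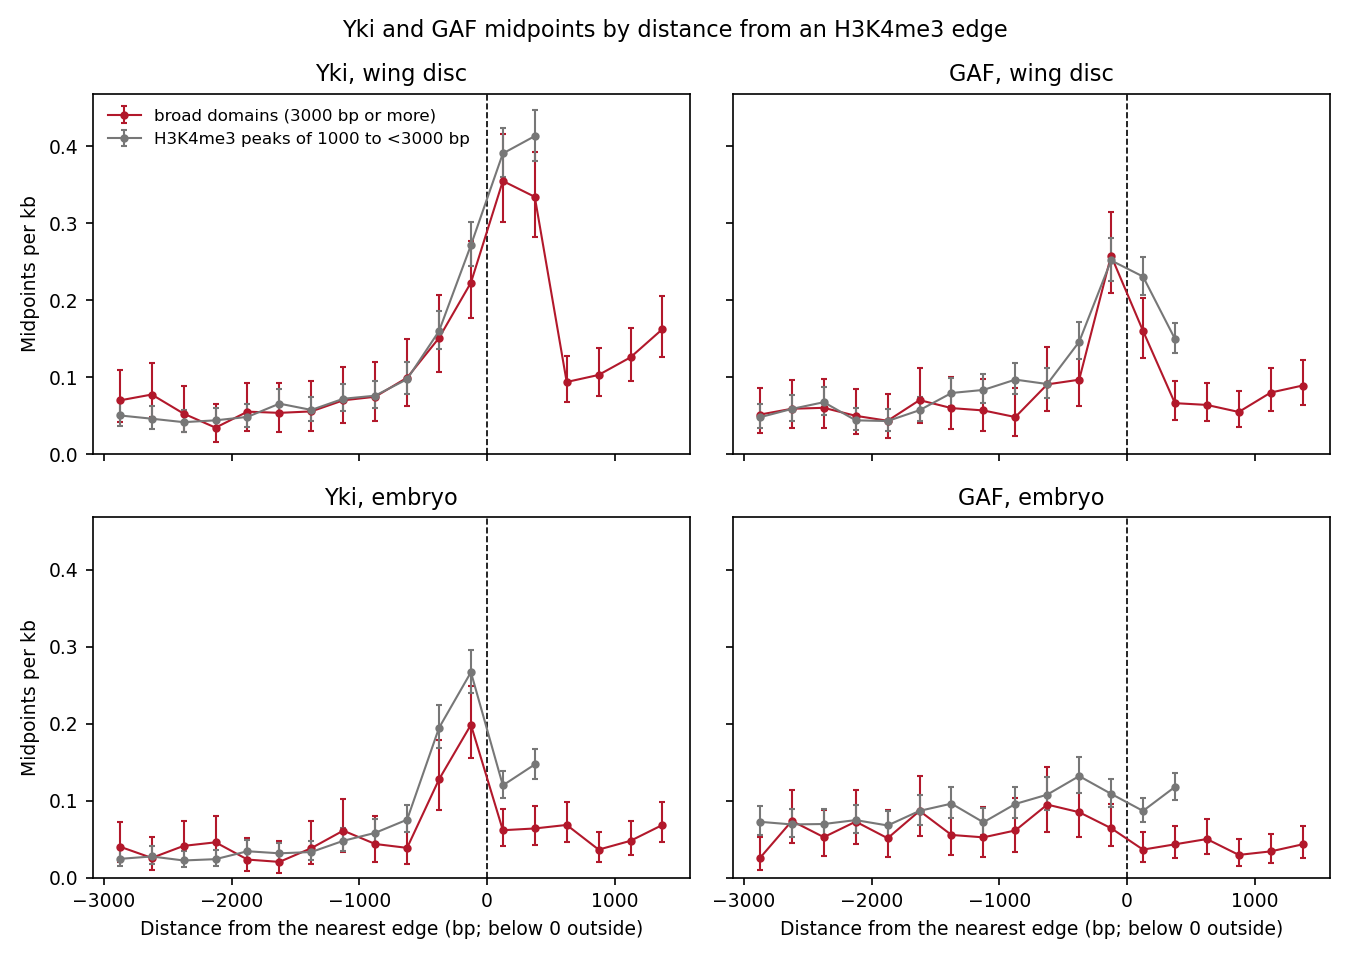
Peak midpoints per kb (vertical) in steps of 250 bp by distance in bp from the nearest edge (horizontal, negative outside), for broad domains (red) and H3K4me3 peaks of 1000 to below 3000 bp (grey), with 95% Poisson bars. Bases of other H3K4me3 peaks are left out of the outside steps. Yki in wing discs is highest inside the edge (0.355 per kb in broad domains), and Yki in embryos is highest outside it (0.199 per kb).

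Edges of broad domains were occupied about as often as those of narrow peaks, or less often. A Yki wing disc midpoint lay within 500 bp of 470 of the 1746 edges (26.9%, interval 24.9 to 29.0%), against 26.1% of edges of narrow peaks and 30.6% of edges of those of 1000 bp or more. The difference was 0.861 points against all narrow peaks (-1.33 to 3.14) and -3.69 points against those of 1000 bp or more (-6.03 to -1.27). A midpoint lay at both edges of 64 domains, at 1 edge of 342 and at no edge of 467. With 26.9% of edges occupied, single edges outnumber pairs without any link between the ends, and such a link was not tested. Of the same edges, GAF in wing discs occupied 15.7% of edges, against 17.7% in narrow peaks. In embryos, Yki occupied 10.1%, against 14.9%, and GAF 5.21%, against 12.3%. Both proteins shared edges, since a GAF wing disc midpoint lay at 37.0% of the broad edges that had Yki in wing discs and at 7.84% of those that had none, a difference of 29.2 points (24.7 to 33.8). In narrow peaks the same difference was 35.5 points (33.6 to 37.4).

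Set against their flanks of 2000 bp, broad domains were denser in Yki of wing discs and sparser in both embryo lists. Inside the domains Yki in wing discs had 1.80 times the density of the 2000 bp flanks, from which bases of other H3K4me3 peaks were left out (interval 1.54 to 2.10). For GAF in wing discs the value was 0.886 times (0.746 to 1.06). Yki in embryos had 0.796 times (0.651 to 0.975), and GAF in embryos 0.478 times (0.375 to 0.609). The same ratios for narrow peaks were 2.56, 1.39, 1.15 and 0.986 in that order of lists. The value for Yki in embryos depends on the flank, since it was 1.26 with flanks of 5000 bp, and the one for GAF in wing discs was 1.21 there and 0.641 with flanks of 1000 bp.

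Broad domains lay close to other H3K4me3 peaks, and the short gaps beside them were rich in Yki of embryos. The median distance to the nearest other H3K4me3 peak was 267 bp for broad domains and 387 bp for narrow peaks, and 81.1% of broad domains (78.4 to 83.6%) had one within 1000 bp, against 66.9% of narrow peaks (65.7 to 68.1%). There were 887 gaps below 1000 bp beside a broad domain, 116 of them between a pair of broad domains, with a median length of 260 bp and 284 kb in all. Yki embryo midpoints had a density of 0.261 per kb in these gaps, 4.19 times that inside broad domains (interval 3.19 to 5.44). GAF in wing discs had 0.2501 per kb in the gaps, 2.78 times the density inside (2.12 to 3.59), Yki in wing discs 0.271 per kb and 1.42 times (1.11 to 1.79), and GAF in embryos 0.0528 per kb and 1.60 times (0.874 to 2.74). Gaps elsewhere were compared in the same way. Gaps beside broad domains had 1.02 and 1.21 times the density of gaps between narrow peaks for Yki and GAF in wing discs (0.768 to 1.34 and 0.893 to 1.62) and 1.01 and 0.631 times in embryos (0.756 to 1.33 and 0.331 to 1.13), and all 4 intervals hold 1. The gaps exist as the H3K4me3 caller drew them. Joining H3K4me3 peaks less than 500 bp apart therefore moves gap peaks into domains, and the inside over flank ratio of Yki in embryos was then 1.59 and that of GAF in wing discs 1.48, both above 1.

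The widest domains are described here one by one. The widest, at 3R:16400548-16418422, spanned 17875 bp and was overlapped by 4 Yki and 3 GAF peaks of wing discs and 1 peak each of Yki and GAF of embryos. The second, at 2L:3452386-3470043, spanned 17658 bp and carried a single peak, of Yki in wing discs, with a score of 12.4. The third, at X:1757359-1773718, carried 2 Yki peaks and 1 GAF peak of wing discs and no embryo peak. The number of peaks therefore did not follow width among them. Of the 10 widest domains, all 10 met a Yki and 8 a GAF peak of wing discs, with 20 and 14 peaks in all. In embryos 3 met a Yki and 3 a GAF peak, with 4 and 3 peaks in all.

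**Figure D5:**
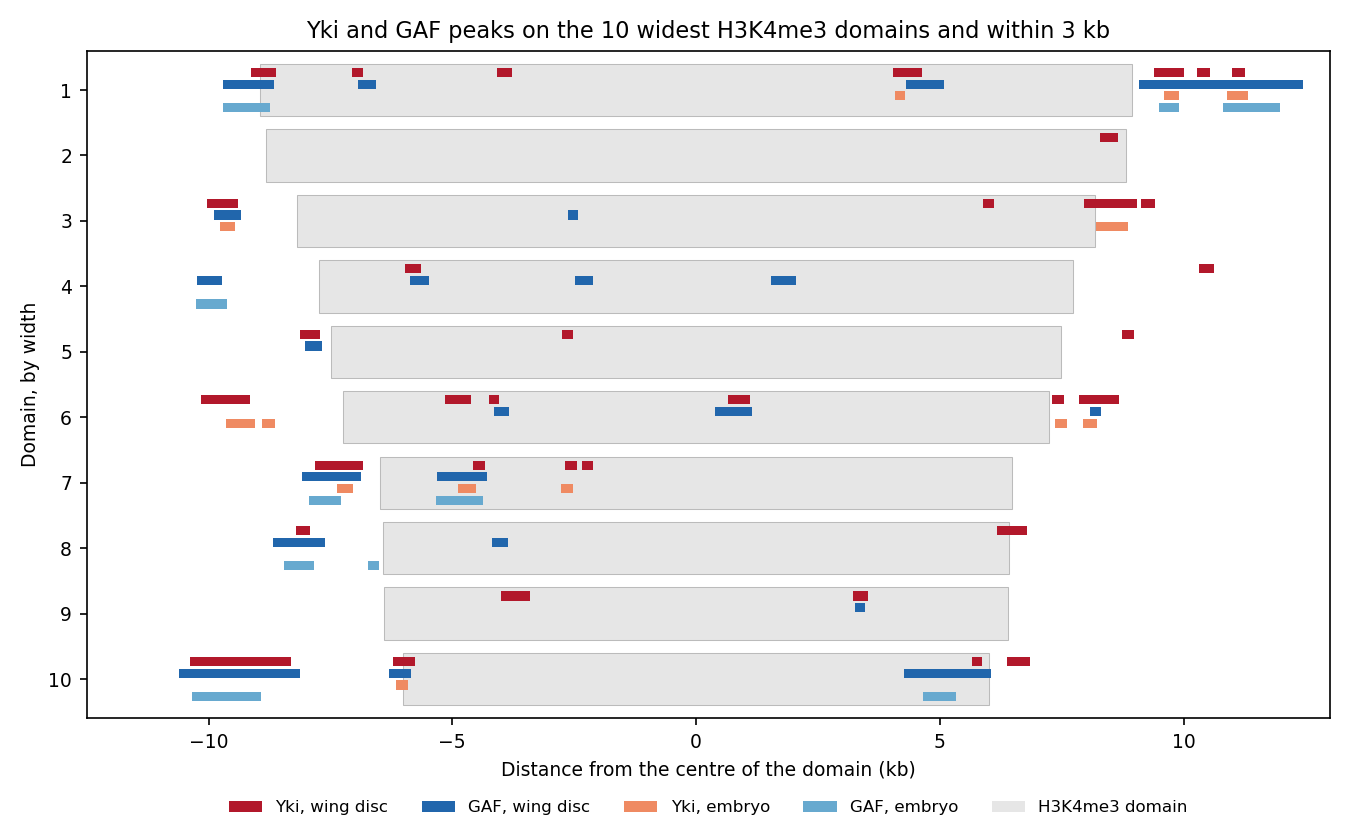
Map of the 10 widest broad domains (grey bars, widest at the top), with distance in kb from the centre of each, and the Yki and GAF peaks of both tissues on them and within 3 kb. Wing disc peaks of Yki are on all 10 domains and embryo peaks of Yki on 3, and several peaks sit on or just beyond an edge.

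The widest domain held 7 midpoints over the 4 lists, and 4 narrower ones held more. The domain at 3R:18182322-18192948, of 10627 bp, and the one at 3R:27569216-27574986, of 5771 bp, each held 9 midpoints over the 4 lists. The narrower of them held 4 Yki wing disc, 4 Yki embryo and 1 GAF wing disc midpoint and no GAF embryo peak. Next came 2R:13452231-13462468 and 3R:27433610-27440679 with 8 midpoints each. At the other end, the widest domains that no list met were 2L:3021531-3029922 with 8392 bp, 3R:11190875-11199197 with 8323 bp and 2L:811613-819518 with 7906 bp.

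Only wing disc peaks with their midpoint in a broad domain were ranked by score. The 3 highest of Yki and of GAF sat in domains of 3346 to 4296 bp, beside a median of 4142 bp for broad domains. The 10 widest domains held only 18 of 791 Yki and 12 of 372 GAF wing disc midpoints, so no link of score with width is drawn. The highest Yki wing disc score with a midpoint in a broad domain was 80.3, in the domain of 3586 bp at 2L:7797955-7801540, where the GAF wing disc peak scored 17.3. The highest GAF wing disc score with a midpoint in a broad domain was 716.6. It lay in the domain of 3346 bp at 2R:17600771-17604116, where the highest Yki wing disc score was 30.8. The domain of 4296 bp at 2R:8474677-8478972 was second for both proteins, with scores of 61.9 for Yki and 626.6 for GAF, and it also carried 2 Yki peaks and 1 GAF peak of embryos. The third places went to 2R:9388530-9392639 for Yki, with a score of 55.8, and to X:19576224-19579737 for GAF, with a score of 524.7, and all 4 lists had a peak on both.

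Broad domains were rarer on the X chromosome. The X held 127 of them (14.5%), against 18.3% of narrow peaks, a difference of -3.80 points (interval -6.21 to -1.11). Broad domains made up 10.96% of H3K4me3 peaks on X, 13.2% on 2L, 14.7% on 2R, 12.8% on 3L, 15.6% on 3R and 2 of 64 peaks on chromosome 4. Yki wing disc peaks overlapped 66.9 to 73.9% of the broad domains of the 5 large arms, and Yki embryo peaks 30.9 to 32.0%. GAF peaks varied more between arms, from 41.5% on 2L to 60.1% on 2R in wing discs and from 16.3% on 2L to 26.6% on 2R in embryos.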

How the data were processed

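Peak positions of 5 lists were analysed, 1 per antibody and tissue, as deposited by the authors. Per the submitters' processing notes, reads were base-called with CASAVA 1.7.0, BWA and Bowtie were used, and positions are on dm3. Names in the deposited wing disc lists begin with MACS. The sources used here do not give the caller of the embryo lists, any threshold, the use of input or how replicates were combined. The wing disc lists hold a deposited score per peak, of unstated scale. No list has a peak below 200 bp or a gap below 51 bp. Depth is unknown, and both the number and the width of peaks vary with depth and threshold.

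Overlap means at least 1 bp in common. Densities count peak midpoints per kb. Edge means the outer 25% at each end, centre the central 50%, and flanks the 2000 bp on each side without bases of H3K4me3 peaks. Shares have Wilson intervals, differences Newcombe intervals, ratios exact conditional Poisson or Clopper-Pearson intervals, and ratios of ratios Wald intervals, all at 95% and not adjusted for the number of comparisons. No test between samples was possible. Python 3.11.15, numpy 2.4.6, pandas 2.3.3, scipy 1.17.1 and matplotlib 3.10.9 were used, and the density and position steps were checked on simulated data. Named domains are the 10 widest, the 5 with most midpoints, the 3 widest with no peak, 3 on each side of the threshold, and the 3 with the highest-scoring Yki and GAF wing disc peaks. The domains, lists and rules were chosen with earlier results of these data known, and the distance steps, gaps, combinations and arm values were added after other values had been seen. The alternatives were other width thresholds, overlap rules, flanks, edge and centre windows, joined or left-out peaks, covered bases, the upper 50% of each list, lists of equal length and narrow peaks of 1000 or 2000 bp and over as the comparison.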

Additional observations from a re-analysis of the deposited data

Results flagged for a closer look

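The wing disc list and the embryo list of the same protein gave different values on the same domains in 5 of 6 ratios compared, each as wing disc over embryo with an interval that excludes 1. These intervals treat the lists as independent although many peaks are shared, tissue cannot be told apart from calling and depth, and no cause was tested. For Yki, the broad over narrow density ratio was 1.25 times as high in wing discs (interval 1.06 to 1.47), the edge over centre ratio 1.47 times (1.11 to 1.95) and the inside over flank ratio 2.26 times (1.76 to 2.89). For GAF, the density ratio was 1.85 times as high in wing discs (1.49 to 2.30), and the inside over flank ratio also 1.85 times (1.39 to 2.48). The edge over centre ratio of GAF had an interval that holds 1 (0.796, 0.537 to 1.18). With the longer list of each protein cut to the length of the other, an alternative chosen after seeing the data, the Yki density and edge values were 1.09 (0.908 to 1.30) and 1.28 (0.934 to 1.75), both with intervals that hold 1. The inside over flank values were then 2.03 for Yki (1.53 to 2.70) and 1.88 for GAF (1.40 to 2.53), and the density value of GAF was 1.91 (1.53 to 2.38).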

How the results depend on the processing

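Of 236 values under other settings, 181 kept their direction and, where they have an interval or are shares, their call or size. Values in covered bases have no interval. The density ratio of broad over narrow stayed below 1 in all settings run. For GAF in wing discs it ranged from 0.331 with the upper 50% to 0.801 with GAF peaks of 1000 bp or less. With covered bases it was 0.430 for GAF in wing discs and 0.237 for GAF in embryos. Shares overlapped follow the definition. Requiring the midpoint, or 50% of the peak, inside gave 63.7% and 37.3% for Yki and GAF in wing discs and 24.6% and 14.4% in embryos. Joining H3K4me3 peaks less than 500 bp apart gave 77.5%, 58.4%, 40.7% and 30.0% in the same order, and the upper 50% of each list 39.3%, 23.8%, 18.1% and 13.4%. For Yki in wing discs the share was 66.4% and 75.4% at thresholds of 2500 and 4000 bp, and 45.1% with the list cut to the 3749 peaks of the embryo list, a setting chosen after seeing the data.

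Edge over centre ratios changed as follows. Yki in wing discs gave 0.931 with the upper 50%, 0.916 with joined peaks, 1.02 with the cut list and 1.02 at 4000 bp. GAF in wing discs gave 1.07 without X, 4 and heterochromatin, 1.03 in covered bases, 1.06 for the outer 500 bp at each end against the central 1000 bp and 1.09 at 2500 bp. With joined peaks, GAF in embryos gave 1.78 and Yki in embryos 0.827, and with factor peaks of 1000 bp or less Yki in embryos gave 0.758, each with an interval that excludes 1. Set over narrow peaks, the ratio was 1.07 for GAF in wing discs and 1.11 for Yki in embryos with the upper 50%, 0.916 and 0.883 for Yki and GAF in wing discs and 1.04 for Yki in embryos at 2500 bp, and 1.28 for GAF in embryos with factor peaks of 1000 bp or less. Against narrow peaks of 2000 bp or more, a comparison chosen after seeing the data, it was 0.601 for Yki in embryos.

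Inside over flank, GAF in wing discs gave 1.48 with joined peaks, 1.05 with factor peaks of 1000 bp or less, 0.641 and 1.21 with flanks of 1000 and 5000 bp and 0.642 with the upper 50%. Yki in embryos gave 1.59, 1.003 in covered bases, 1.26 with flanks of 5000 bp, 0.976 with the upper 50%, 0.792 at 4000 bp and 0.823 without the 10 widest domains. Within 500 bp of the centre, GAF in wing discs gave 1.19 points with factor peaks of 1000 bp or less, and Yki in wing discs -3.66 points at 4000 bp. Against narrow peaks of 2000 bp or more the values were 7.93 and 2.25 points for Yki and GAF in wing discs and 0.260 for Yki in embryos. The cause was not tested beyond what each setting changes by construction.

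No paired analysis was possible because each antibody and tissue has 1 list and no result comes from a test between samples. For the same reason no replicate was left out. Depth, which limits all lists, is unknown.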

Other observations

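At edges of broad domains with another H3K4me3 peak 250 to 1000 bp away, a Yki embryo midpoint lay in the 250 bp outside 8.30% of 506 edges. The share was 2.96% of 743 edges with no other H3K4me3 peak within 1000 bp, a difference of 5.34 points (interval 2.77 to 8.25). Edges with another H3K4me3 peak nearer than 250 bp were left out. For narrow peaks the shares were 6.54% and 5.61%, a difference of 0.928 points (-0.145 to 2.09). GAF in embryos had the opposite sign at broad domains, with 0.791% and 2.42%, a difference of -1.63 points (-3.09 to -0.122), and narrow peaks gave the same sign (-2.41 points, -3.11 to -1.65). Yki and GAF in wing discs gave differences of 1.42 points (-1.09 to 4.18) and 1.66 points (-1.07 to 4.64) at broad domains, both with intervals that hold 0. On the X chromosome the edge over centre ratio in broad domains was 0.875 and 0.531 for Yki and GAF in wing discs and 0.346 and 0.750 in embryos. These values rest on 90, 49, 35 and 21 midpoints and have no intervals. On 2L, 2R, 3L and 3R the ratio was 1.01 to 1.34 for Yki and 0.962 to 1.29 for GAF in wing discs. In embryos it was 0.8 to 1.19 for Yki and 0.917 to 2 for GAF on those arms. A difference between arms was not tested.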
